A study of Mus musculus with 12 samples.

Results

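The 4 microarrays that carry the first of 3 codes in their sample titles were compared with the 8 arrays that carry either of the 2 later codes. The members were taken from the titles alone, 4 of 12 arrays in all, and each code holds 1 array of each treatment. The codes read as dates, but the labels do not say whether a code marks an isolation of cells, a treatment or another step, and they are called the first, the second and the third code here. Cells came from hearts of wildtype C57BL/6J mice aged 1 to 7 days, were kept in culture for 10 to 14 days and had become myofibroblasts before treatment. For 8 h they received carrier, 40 nM sCD74 (the soluble ectodomain of the MIF receptor CD74), 8 nM MIF (macrophage migration inhibitory factor, a cytokine) or both proteins. No genetic alteration separates the groups, and all 12 arrays share strain, age range and culture time as far as the labels give them. The labels do not say how many hearts or litters went into a culture, or whether the 4 arrays of a code came from 1 preparation. The p-values over 12 arrays therefore measure the spread between these arrays, and they are too small if the arrays of a code share a preparation. A fit on the 3 code means, with 1 first code against 2 later ones, is given beside the main counts for that reason.

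A heart of a newborn mouse holds fibroblasts, cardiomyocytes, endothelial cells, pericytes, macrophages and epicardial cells. Cultures of cardiac fibroblasts are commonly started by digesting the tissue and keeping the cells that attach to plastic, so that other adherent cells can come along. On stiff plastic the fibroblasts turn into myofibroblasts, which build stress fibres from smooth muscle actin and secrete collagen, elastic fibres and other matrix. Endothelial cells are known by junction proteins and receptors for vascular growth factors, and macrophages by the receptor for colony-stimulating factor, lysosomal enzymes and pattern recognition receptors.

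Each array gave a log2 signal for 22206 probe sets that are not controls, and log2 signals are compared here only within a probe set. The first-code arrays had a median signal of 8.11 to 8.14, against 8.10 to 8.14 in the later-code arrays. The gap between positive and negative control medians, a measure of signal over background, was 3.77 to 4.17 in the first code, against 3.67 to 4.25 in the later codes. Neither the medians (exact permutation within treatments, two-sided p = 0.765) nor the gaps (p = 0.568) differed beyond the spread of the arrays, where 0.0123 is the smallest p that 81 arrangements allow. The submitters had processed the values with RMA, which makes arrays share a distribution. The test on medians therefore cannot show that overall signal was alike before processing. All 12 arrays correlated best with an array of their own code. The contrast of first with later codes took 33.7% of the variance over all probe sets, that of the third with the second code 12.3%, the treatments 19.2% and the residual 34.9%. By degrees of freedom alone these shares would be 9.09%, 9.09%, 27.3% and 54.5%. The shares sum to the whole, so with both code contrasts above theirs, the treatments and the residual both lay below theirs. This does not show that the treatments lacked an effect.

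**Figure D1:**
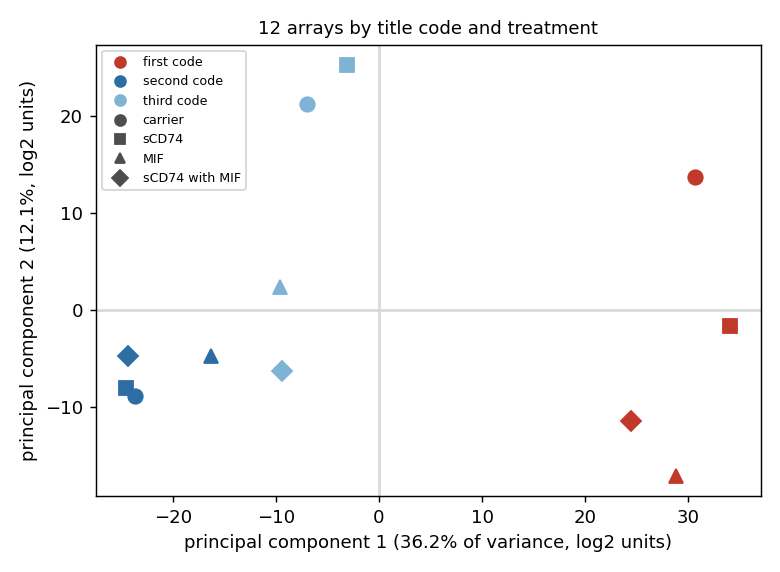
The 12 arrays are plotted on the first principal component (36.2% of the variance) and the second (12.1%), both in log2 units, with colour for the title code and marker shape for the treatment. The 4 first-code arrays lie at positive values of the first component and all 8 later-code arrays at negative values.

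With the treatment as block, 2798 of 22206 probe sets passed limma's test at a Benjamini-Hochberg adjusted p of 0.05, which is 12.6%. Signals were higher in the first code for 1125 probe sets (5.07%) and lower for 1673 (7.53%), with a median difference of 0.03 over all probe sets. Counts of called members in the gene lists below stand against these shares. Counts near them are not read as results about a list. In 2754 of the 2798 the first code differed in the same direction within each of the 4 treatments. These probe sets were called on the same arrays, so this agreement partly follows from the call and is not separate evidence. For 2079 probe sets (9.36%) the 4 first-code arrays did not overlap the 8 later ones. On the 3 code means, 666 probe sets passed (3%), of which 244 were higher (1.1%) and 422 lower (1.9%), and 662 of them were also called over 12 arrays. Against the later codes singly, 3532 probe sets (15.9%) differed between the first and second codes, 7.01% higher and 8.89% lower in the first. Between the first and the third 1861 (8.38%) differed, 3.44% higher and 4.94% lower. These comparisons share the 4 first-code arrays. Between the third and the second code 198 differed (0.892%). The count over 12 arrays leaned on the first-code arrays, since 1528 probe sets passed without the sCD74 array of that code, 1794 without the array of both proteins and 1801 without the carrier array.

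The labelled cell type was checked against 23 measured fibroblast markers, and Pdgfra was not analysed here. Of these markers 2 had a mean over 12 arrays below the negative control level of 7.53. Tcf21, a transcription factor of the cardiac fibroblast lineage, read 13.93, 14.38, 14.22 and 14.28 in the first code (carrier, sCD74, MIF and both, the order used throughout), against 14.09 to 14.40 (median 14.21) in the 8 later arrays. The arrays overlapped, and the log2 difference of -0.02 ± 0.09 (SE, the error given with all differences) did not pass (adjusted p = 0.92). Col1a1, a chain of collagen I, averaged 16.25 ± 0.21 in the first code and 16.04 ± 0.08 in the later codes (SD, n = 4 and 8). Of the 23 markers 2 were called higher, 2 lower and 19 not called, against 5.07% higher and 7.53% lower over all probe sets. Their median difference was 0.02, against 0.03 over all probe sets. The called markers were Cd248, a surface sialomucin of stromal cells (difference 0.58 ± 0.13), Dpep1, a dipeptidase (0.33 ± 0.09), Gsn, which severs actin filaments (-0.64 ± 0.15), and Smoc2, a matricellular calcium-binding protein. Smoc2 read 9.75, 9.47, 9.70 and 9.65 in the first code, against 10.86 to 11.24 (median 11.00) in the later arrays. It fell by 1.38 ± 0.10 without any overlap (limma, adjusted p = 9.35e-06).

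**Figure D2:**
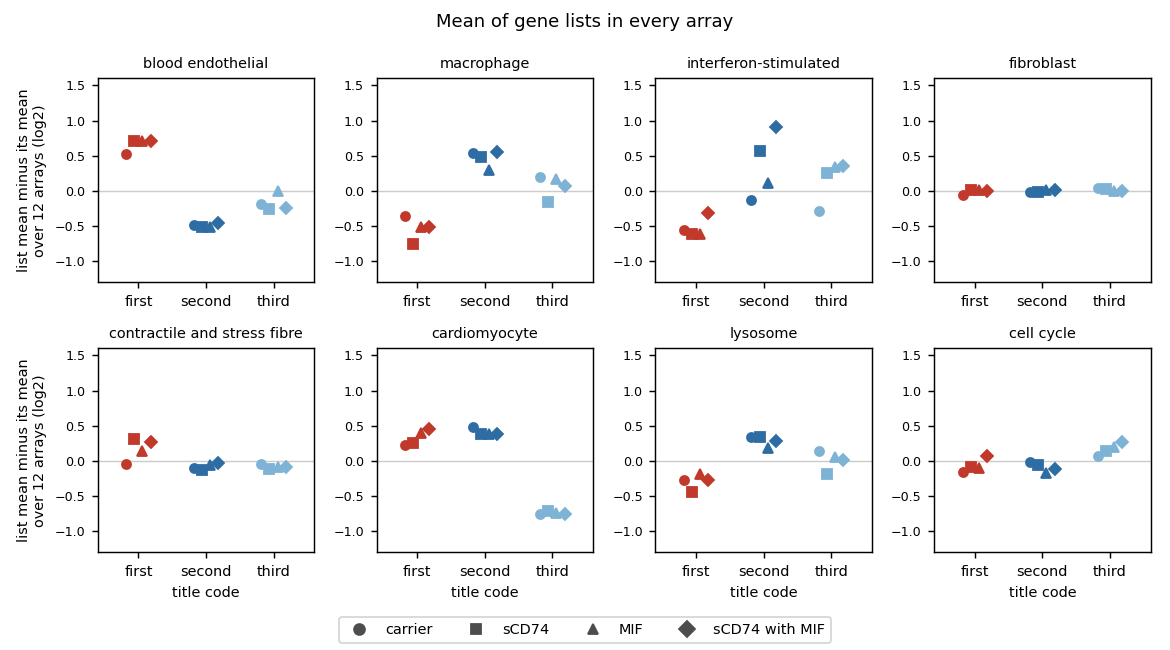
Each panel shows, for 1 gene list, the mean log2 signal of its measured members in each of the 12 arrays after subtracting the list's mean over all arrays, by title code (horizontal axis) and treatment (marker shape). The endothelial mean is higher, and the macrophage and interferon means are lower, in all 4 first-code arrays than in any later one. The fibroblast means overlap, and the cardiomyocyte mean is low in the third code alone.

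Genes of the blood vessel lining were higher in the first code, with the largest median difference of the 40 gene lists examined. Of 24 measured endothelial markers 16 were called higher and 2 lower, with a median difference of 1.00. For 16 of the 24 measured members all 4 first-code arrays lay above every later array, against 3.93% of all probe sets. For 1 they lay below, against 5.43%. The list mean per array was 9.78 to 9.97 in the first code, against 8.74 to 9.25 in the later codes. On the code means 14 of the 24 passed as higher and 0 as lower, and without the second code 15 were called higher. In RNA of a whole culture, more cells of a type and more RNA per cell cannot be told apart.

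Cdh5, the cadherin that joins endothelial cells at their junctions, read 14.59, 14.47, 14.39 and 14.22 in the first code, against 10.78 to 12.82 (median 11.65) in the 8 later arrays. Every first-code array lay above every later one, and the difference of 2.67 ± 0.35 led the 15 largest named rises (limma, adjusted p = 0.000428). Pecam1, an adhesion molecule of the same junctions, read 12.03, 12.13, 12.01 and 11.97 in the first code, against 8.82 to 10.57 (median 9.45) in the later arrays, a difference of 2.48 ± 0.27 (adjusted p = 0.000154). Kdr, the main receptor for vascular endothelial growth factor, read 11.50, 11.49, 11.72 and 11.43 in the first code, against 8.58 to 10.30 (median 9.28) in the later arrays, a difference of 2.19 ± 0.30 (adjusted p = 0.000533). The groups were separate for all 3 genes, and the later arrays spread more than the first ones. For Cdh5 the SD was 0.15 over the 4 first-code arrays and 0.77 over the 8 later ones. Part of that spread lay between the later codes: Cdh5 averaged 14.42 in the first code, 11.08 in the second and 12.41 in the third, and the third code exceeded the second by 1.33 (adjusted p = 0.00343).

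Other members of the vessel lining were higher too. Emcn, a sialomucin of capillaries and veins, read 12.00, 11.95, 12.06 and 12.06 in the first code, against 9.10 to 10.49 (median 9.50) in the later arrays. The transcription factor Erg, which maintains endothelial identity, read 10.28, 10.19, 10.46 and 9.95 in the first code, against 7.52 to 8.95 (median 8.21) in the later arrays. Differences were 2.33 ± 0.26 for Emcn and 1.99 ± 0.22 for Erg, with no overlap for either gene. The orphan receptor Tie1 was higher by 1.19 ± 0.12, the fatty acid carrier Fabp4 by 1.42 ± 0.15 and the surface antigen Ly6c1 by 1.52 ± 0.15. Icam2, an adhesion molecule for leukocytes, and Mmrn2, a vascular matrix protein, were also called (adjusted p = 0.000152 and 7.59e-05). Their later-code means lay below the negative control level, so their differences have no stated size. Of the members that fell, Cd34, a sialomucin that stromal cells carry as well, fell by 0.59 ± 0.10, and Vwf, the carrier of clotting factor VIII, fell by 0.40 ± 0.12 (adjusted p = 0.00254 and 0.0441). The other 6 members did not pass, among them the receptors Tek and Flt1, with differences of 0.28 and 0.39.

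Several further genes among the 15 largest rises are known from vessels. Adgrl4 and Adgrf5, adhesion receptors coupled to G proteins, were higher by 2.32 ± 0.29 and 2.46 ± 0.21. The Notch ligand Dll4, which restrains vessel sprouting, read 11.08, 11.57, 11.33 and 11.16 in the first code, against 8.33 to 9.56 (median 8.99) in the later arrays. Efnb2, an ephrin of arteries, read 14.46, 14.50, 14.44 and 14.27 in the first code, against 11.31 to 12.97 (median 12.29) in the later arrays. The groups were apart for both, by 2.28 ± 0.23 and 2.14 ± 0.28 (limma, adjusted p = 8.24e-05 and 0.000382). Of the 15 Notch genes 2 were called higher and 1 lower, with a median of 0.21. Lymphatic markers gave 3 of 7 called higher, with a median of 0.42. Among them Flt4, the receptor for lymphatic growth factors, was higher by 0.66 ± 0.09. Nts, the peptide neurotensin, was called as well (adjusted p = 8.85e-05), with a later-code mean below the negative control level.

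Of 21 collagen chains 4 were called higher and 0 lower, with a median of 0.12. Col18a1, the source of endostatin, read 11.09, 11.21, 11.42 and 10.93 in the first code, against 9.25 to 10.32 (median 9.69) in the later arrays. Col15a1, a related chain, read 9.33, 9.77, 9.71 and 9.34 in the first code, against 8.04 to 9.05 (median 8.35) in the later arrays. Both were separate and differed by 1.43 ± 0.21 and 1.14 ± 0.15, while the minor fibrillar chains Col5a1 and Col11a1 differed by 0.52 ± 0.12 and 0.62 ± 0.16. The collagen IV chains Col4a1 and Col4a2, main chains of vessel basement membranes, did not pass, with differences of 0.30 ± 0.16 and 0.06 ± 0.11. Endothelial markers moved with these chains, and their part in the result was not tested.

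**Figure D3:**
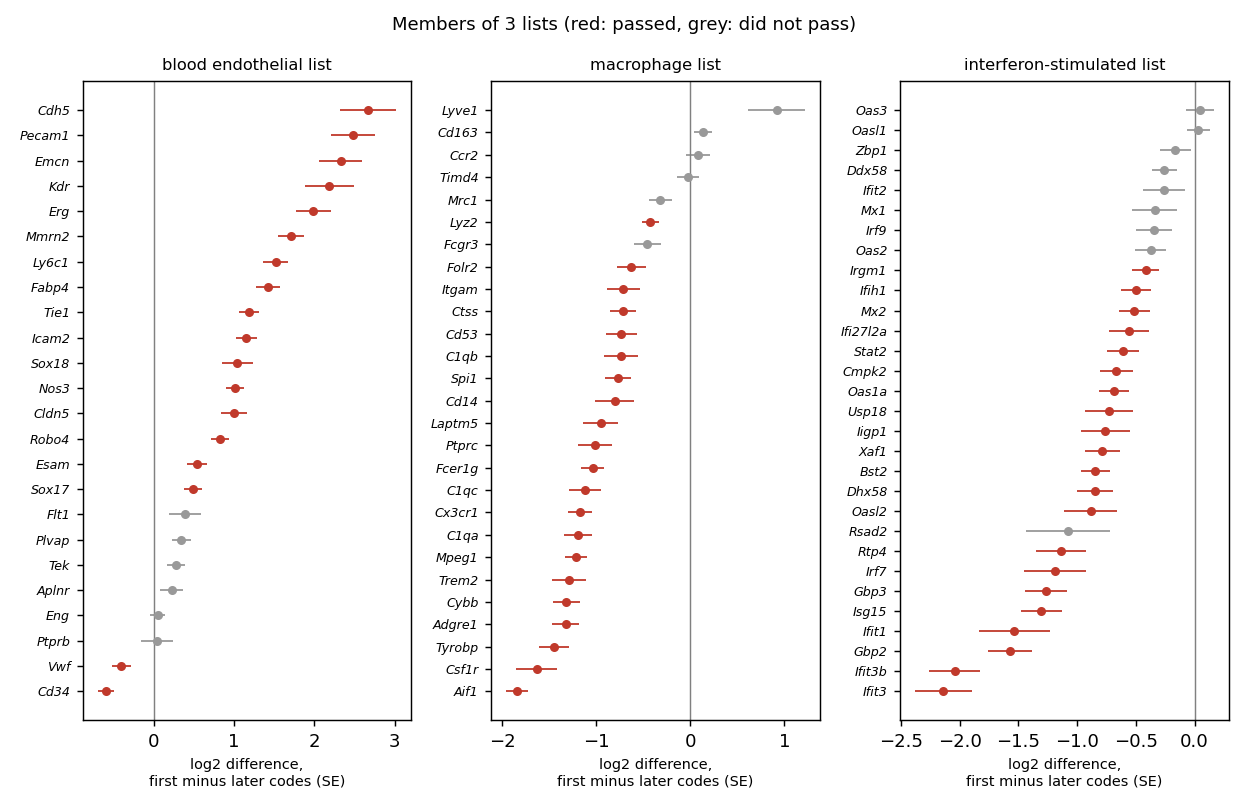
The members of 3 lists are shown with the log2 difference of first minus later codes and its SE (horizontal axis). Red points passed the test over all probe sets and grey points did not. Of the endothelial list 16 of 24 were called higher, and of the macrophage and interferon-stimulated lists 21 of 27 and 21 of 30 were called lower.

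Markers of macrophages were lower in the first code. Of 27 measured markers 21 were called lower and 0 higher, with a median difference of -0.81. The difference was positive for 3 of the 27, and 1 marker was called higher against the third code alone. For 16 of the 27 measured markers all 4 first-code arrays lay below all 8 later ones, against 5.43% of all probe sets. The list mean was 11.72 to 12.11 in the first code, against 12.30 to 13.01 in the later codes. On the code means 12 passed as lower, and 17 did so without the second code and 23 without the third. For 4 of the 27 the mean over 12 arrays lay below the negative control level.

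Csf1r, the receptor through which colony-stimulating factor keeps macrophages alive, read 12.92, 12.22, 12.60 and 12.49 in the first code, against 13.56 to 14.71 (median 14.18) in the later arrays. All 4 first-code arrays lay below all 8 later ones, and the signal fell by 1.64 ± 0.22 (limma, adjusted p = 0.000505). Aif1, an actin-bundling protein of activated macrophages, read 10.99, 10.12, 10.68 and 10.44 in the first code, against 11.77 to 12.66 (median 12.52) in the later arrays, and fell by 1.84 ± 0.11 (adjusted p = 3.24e-06). Adgre1, which encodes the F4/80 antigen, read 12.60, 12.13, 12.37 and 12.33 in the first code, against 13.41 to 14.07 (median 13.62) in the later arrays, and fell by 1.33 ± 0.14 (adjusted p = 0.000116). For Aif1 the second and the third code were alike in their means, at 10.55 in the first code, 12.43 in the second and 12.36 in the third, whereas Csf1r averaged 12.56, 14.59 and 13.79 in the same order. For Csf1r the third minus the second code was -0.80 (adjusted p = 0.0174), so that the third code lay between the other codes.

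The signalling adaptor Tyrobp fell by 1.45 ± 0.16, the NADPH oxidase subunit Cybb fell by 1.32 ± 0.14 and the pore-forming protein Mpeg1 by 1.22 ± 0.12. Among the complement C1q chains, which tissue macrophages secrete, C1qa fell by 1.20 ± 0.15, C1qc by 1.12 ± 0.17 and C1qb by 0.74 ± 0.18. All 6 genes passed the test, and of these C1qb overlapped between groups. Lysozyme Lyz2, the most abundant transcript of many macrophages, read 17.06, 16.82, 16.95 and 16.93 in the first code, against 17.15 to 17.55 (median 17.37) in the later arrays, a fall of 0.43 ± 0.09 (adjusted p = 0.00726). The fractalkine receptor Cx3cr1 was called lower (adjusted p = 0.000116), with a first-code mean below the negative control level. The mannose receptor Mrc1 had a difference of -0.32 ± 0.13 and did not pass. Ccr2, Cd163 and Timd4, which mark other macrophage subsets, had means below the negative control level in both groups.

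The 15 largest named falls included further genes known from myeloid cells. Ptpn6, the tyrosine phosphatase SHP-1 of blood cells, read 8.97, 8.87, 8.72 and 9.24 in the first code, against 10.25 to 11.91 (median 11.06) in the later arrays. It fell by 2.21 ± 0.26, the largest named fall, with every first-code array below every later one (limma, adjusted p = 0.000187). Hpgd, which inactivates prostaglandins, read 10.26, 8.98, 9.39 and 9.72 in the first code, against 11.13 to 12.27 (median 11.87) in the later arrays, and fell by 2.19 ± 0.22 (adjusted p = 9.08e-05). The iron exporter Slc40a1 (ferroportin) fell by 1.70 ± 0.17, the platelet-activating factor receptor Ptafr by 1.65 ± 0.26 and the carbonyl reductase Cbr2 fell by 1.97 ± 0.34. Of these, Cbr2 differed most between the later codes, with means of 9.05 in the first, 11.67 in the second and 10.36 in the third code. Tlr2, a receptor for bacterial lipoproteins, read 11.57, 10.77, 11.23 and 11.91 in the first code, against 12.44 to 13.62 (median 13.14) in the later arrays, and Ly86, a partner of a Toll-like receptor relative on myeloid and B cells, read 12.75, 11.94, 12.32 and 12.46 in the first code, against 13.50 to 14.53 (median 14.15) in the later arrays. Tlr2 fell by 1.69 ± 0.15 and Ly86 fell by 1.70 ± 0.17. The amino acid transporter Slc43a2 fell by 1.89 ± 0.28 and Rassf4, a Ras-association domain protein, by 1.69 ± 0.16.

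Lysosomal and complement genes went the same way in part. Of 20 lysosomal genes 11 were called lower and 0 higher, with a median of -0.46, and 4 of them passed on the code means. Hexa, a subunit of hexosaminidase, read 13.94, 13.72, 14.00 and 13.65 in the first code, against 14.68 to 15.20 (median 14.92) in the later arrays. The groups were separate, and Hexa fell by 1.08 ± 0.12 (limma, adjusted p = 0.000119). The protease Ctsz fell by 0.81 ± 0.10, the cholesterol carrier Npc2 by 0.67 ± 0.10, the sphingolipid activator Psap by 0.65 ± 0.11 and the lysosomal lipase Lipa by 0.59 ± 0.08. Of 16 complement genes 7 were called lower and 0 higher, with a median of -0.14, and 3 of those 7 are the C1q chains that also stand in the macrophage list. Beside them, properdin (Cfp) fell by 1.03 ± 0.15 and the C3a receptor C3ar1 by 1.06 ± 0.17, while C4b and the C1 inhibitor Serping1, both made by many stromal cells, did not pass, with differences of 0.14 and 0.29. Macrophage markers moved with the lysosomal and complement genes, as given above, and their part in the result was not tested.

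Genes induced by interferon were lower in the first code. Of 30 measured interferon-stimulated genes 21 were called lower and 0 higher, with a median of -0.71, against 7.53% of all probe sets called lower. For 6 of the 30 all first-code arrays lay below all later ones, against 5.43% of all probe sets. On the code means 15 passed as lower, without the second code 11 and without the third 21. The list mean was 8.27 to 8.57 in the first code, against 8.60 to 9.79 in the later codes. Interferons act through the transcription factor complex ISGF3, which binds a promoter element known as the ISRE. The 250 bases before the start of 3 called genes are shown in the direction of transcription because their promoters hold that element near the start, with matches to GAAA, any 2 bases and GAAA, or the reverse complement, in capitals. They come from the RefSeq annotation of GRCm38.p6, at chr19:34583279-34583528 on the plus strand for Ifit3, chr3:142620413-142620662 on the plus strand for Gbp2 and chr4:156200819-156201068 on the minus strand for Isg15.
Ifit3: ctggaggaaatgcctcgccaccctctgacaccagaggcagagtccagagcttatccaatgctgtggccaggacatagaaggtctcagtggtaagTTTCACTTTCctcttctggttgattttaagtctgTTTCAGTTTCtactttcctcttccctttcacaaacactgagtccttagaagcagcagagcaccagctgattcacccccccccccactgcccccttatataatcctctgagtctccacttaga
Gbp2: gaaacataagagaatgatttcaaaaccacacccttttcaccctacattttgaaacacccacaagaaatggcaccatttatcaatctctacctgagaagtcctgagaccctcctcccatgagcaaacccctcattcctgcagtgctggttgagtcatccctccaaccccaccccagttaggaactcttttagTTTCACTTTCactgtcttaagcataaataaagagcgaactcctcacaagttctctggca
Isg15: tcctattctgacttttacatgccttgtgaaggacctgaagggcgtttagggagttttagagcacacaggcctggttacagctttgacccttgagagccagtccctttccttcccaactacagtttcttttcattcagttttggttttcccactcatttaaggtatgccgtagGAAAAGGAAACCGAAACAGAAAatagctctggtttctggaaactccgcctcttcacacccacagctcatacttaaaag
In Isg15 the 3 matches overlap, and Ifit3 has 2 separate ones.

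Of the 30 genes 21 had a promoter in the table, and 12 of these (57.1%) held a match to that pattern on either strand, against 936 of 27025 genes in the whole table (3.46%). The list was drawn up as genes induced by interferon, so this share describes the list and not the difference between codes. Among the 15 called lower 10 held one (66.7%), and among the 6 not called 2 did, which are too few genes to compare. A match is a run of letters and was not tied to binding in these cells. For comparison, GAGGAAGT, a core of sites for the myeloid factor PU.1, was found in 1 of 20 macrophage genes (5%), against 2.79% of all genes.

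Ifit3, an antiviral protein with tetratricopeptide repeats, read 9.76, 9.91, 10.27 and 10.34 in the first code, against 10.81 to 13.46 (median 12.23) in the later arrays. The groups were apart, and the fall was 2.14 ± 0.24 (limma, adjusted p = 0.000161). Its near-identical copy Ifit3b fell by 2.04 ± 0.22, and signal may be split between the 2 genes. Gbp2, a guanylate-binding protein that attacks intracellular pathogens, read 9.25, 9.42, 9.46 and 10.00 in the first code, against 9.80 to 11.96 (median 11.08) in the later arrays. It fell by 1.57 ± 0.19 (adjusted p = 0.000226), although the first-code array with both proteins (10.00) overlapped the carrier array of the third code (9.80). Its relative Gbp3 fell by 1.27 ± 0.18 and Bst2, which tethers budding viruses, by 0.85 ± 0.12. Isg15, a ubiquitin-like modifier, was called lower (adjusted p = 0.000444), with a first-code mean below the negative control level.

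The difference was present with and without the added proteins. In carrier alone Ifit3 read 9.76 in the first code, 11.78 in the second and 10.81 in the third. With both proteins it read 10.34 in the first code, 13.46 in the second and 12.35 in the third. The first code was the lowest of the 3 in both settings. Macrophage markers moved with the interferon-stimulated genes, and their part in the result was not tested.

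Among genes of inflammation the directions split. Of 23 NF-kappaB targets 11 were called lower and 2 higher, with a median of -0.38. That count depends on the later codes, since 3 were called lower without the second code and 4 on the code means. In carrier the list mean was 10.01 in the first code, against 10.05 to 10.30 in the later codes. With sCD74 alone it was 10.09, against 10.10 to 10.19. With MIF alone it was 10.07, against 10.53 to 10.74, and with both proteins 10.33, against 10.55 to 10.61. A dependence on treatment was not tested for the list. Tnfaip3, which shuts off NF-kappaB signalling, fell by 0.68 ± 0.16, the transcription factor Irf1 by 0.67 ± 0.13, the inhibitor of apoptosis Birc3 by 0.48 ± 0.10 and the signalling adaptor Traf2 by 0.61 ± 0.11. The cytokine Tnf was called lower (adjusted p = 0.00144), with a first-code mean below the negative control level. Il6 went the other way. This cytokine read 11.87, 12.26, 12.03 and 12.31 in the first code, against 10.22 to 11.17 (median 10.77) in the later arrays, a rise of 1.39 ± 0.17 with no overlap (limma, adjusted p = 0.000278).

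Of 35 chemokines and cytokines 8 were called lower and 3 higher, with a median of -0.14. For 9 of the 35 the mean over 12 arrays lay below the negative control level. Cxcl5, a neutrophil attractant that stromal cells make, read 13.10, 13.10, 13.41 and 13.49 in the first code, against 10.94 to 12.62 (median 11.48) in the later arrays. The first-code arrays were all above the later ones, by 1.64 ± 0.28 (adjusted p = 0.00225). The monocyte attractant Ccl3 read 11.96, 11.83, 12.26 and 12.59 in the first code, against 12.52 to 13.37 (median 13.18) in the later arrays, and fell by 0.89 ± 0.15 with overlap. Pf4, a chemokine of platelets and macrophages, fell by 0.60 ± 0.10 without overlap.

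**Figure D4:**
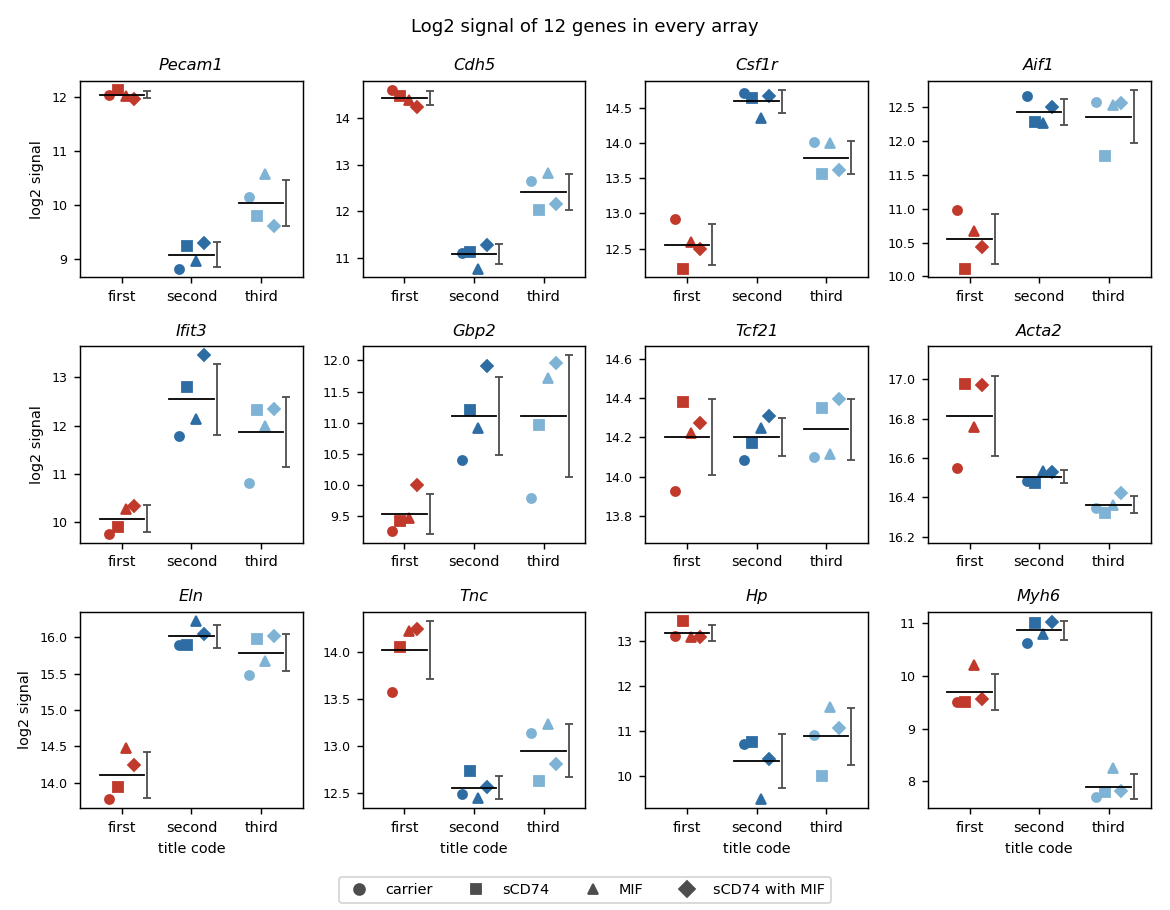
The log2 signal of 12 genes is plotted in every array by title code, with marker shape for the treatment. Black lines are means of the 4 arrays of a code and bars beside them 1 SD. Pecam1, Cdh5, Tnc and Hp are high and Csf1r, Aif1, Ifit3 and Eln low in all first-code arrays, Gbp2 and Acta2 have overlapping or touching groups, Tcf21 overlaps fully, and Myh6 is highest in the second code and lowest in the third.

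Among the 15 largest named rises were secreted proteins that are not markers of the vessel lining. Hp, the haemoglobin-binding plasma protein haptoglobin, read 13.11, 13.45, 13.09 and 13.08 in the first code, against 9.49 to 11.53 (median 10.74) in the later arrays. Lcn2, a carrier of bacterial iron chelators, read 14.31, 15.02, 13.82 and 14.92 in the first code, against 10.94 to 12.83 (median 12.34) in the later arrays. Prg4, the lubricating proteoglycan of joints and serous surfaces, read 10.85, 10.33, 10.25 and 10.92 in the first code, against 7.23 to 9.20 (median 8.55) in the later arrays. All 3 had separate groups, and they rose by 2.57 ± 0.30, 2.44 ± 0.32 and 2.20 ± 0.27 (limma, adjusted p = 0.000181, 0.000411 and 0.000309). The second and the third codes were close for each of them, with means of 10.34 and 10.88 for Hp, 12.32 and 11.83 for Lcn2, and 8.53 and 8.24 for Prg4.

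Mest, an imprinted gene expressed from the paternal copy in embryonic mesoderm, read 15.49, 15.50, 15.83 and 15.40 in the first code, against 12.04 to 14.13 (median 13.04) in the later arrays. It rose by 2.43 ± 0.30 without overlap (adjusted p = 0.000316). Shisa6, known in neurons as a partner of glutamate receptors, read 10.19, 10.71, 9.92 and 10.46 in the first code, against 7.80 to 8.26 (median 8.08) in the later arrays, and rose by 2.27 ± 0.12, with the smallest adjusted p of the genes named here (2.04e-06). Trp53i11 rose by 2.47 ± 0.27. Of the 16 imprinted and early growth genes, Mest included, 2 were called higher and 2 lower, with a median of -0.01. Igf2, the fetal growth factor, rose by 0.42 ± 0.09, the proteoglycan Gpc3 fell by 0.69 ± 0.19 and the zinc finger gene Peg3 fell by 0.54 ± 0.15. Dlk1 lay below the negative control level in both groups, and H19 was not analysed here. Of the 10 measured genes of the let-7 and IGF2BP programme of early development, 0 were called in limma's test over all probe sets.

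Of 25 contractile and stress fibre genes 10 were called higher, 1 lower and 14 not called, with a median of 0.30, but 1 passed on the code means and 5 were called higher without the second code. In carrier the list means were close, at 12.91 in the first code, 12.85 in the second and 12.90 in the third. With added proteins they were 13.08 to 13.26 in the first code, against 12.81 to 12.91 in the later codes. A dependence on treatment was not tested for the list. Acta2, smooth muscle actin, read 16.55, 16.98, 16.76 and 16.97 in the first code, against 16.32 to 16.53 (median 16.45) in the later arrays. The lowest first-code value, in carrier, lay just above the highest later one, and the rise was 0.38 ± 0.10 (limma, adjusted p = 0.0198). Tpm4, a tropomyosin of stress fibres, read 15.55, 15.87, 15.92 and 15.89 in the first code, against 15.10 to 15.34 (median 15.17) in the later arrays. It rose by 0.63 ± 0.09 without overlap, as did Zyx, which senses tension at focal adhesions (0.46 ± 0.09). Tagln, which binds actin in smooth muscle, rose by 0.57 ± 0.14 and Vcl, which anchors actin at adhesions, by 0.45 ± 0.10, both with overlapping arrays. The called fall was Fhl2, a scaffold protein of cardiac and mesenchymal cells, which fell by 0.60 ± 0.12.

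Of 22 genes that respond to TGF-beta or to the coactivator YAP 5 were called higher, 4 lower and 13 not called, with a median of 0.03. In carrier the list mean was lowest in the first code, at 12.25, against 12.35 in the second and 12.45 in the third. With added proteins it was 12.54 to 12.58 in the first code, against 12.31 to 12.49 in the later codes. Inhba, which encodes activin A, read 11.90, 12.41, 12.30 and 12.16 in the first code, against 10.93 to 11.45 (median 11.21) in the later arrays. Ankrd1, a YAP target and mechanosensor, read 15.50, 15.89, 15.68 and 15.66 in the first code, against 14.68 to 15.05 (median 14.91) in the later arrays. Ccn1, a matricellular YAP target, read 15.59, 16.13, 15.92 and 15.74 in the first code, against 14.79 to 15.31 (median 15.07) in the later arrays. All 3 were above the later arrays without overlap, by 0.98 ± 0.11, 0.79 ± 0.11 and 0.77 ± 0.12 (limma, adjusted p = 0.00019, 0.000476 and 0.000907). The activin-binding protein Fst rose by 0.79 ± 0.17 and the ligand Tgfb2 by 0.57 ± 0.11. Among the falls, Ltbp4, which stores TGF-beta in the matrix and helps elastic fibres assemble, fell by 0.95 ± 0.10 (adjusted p = 0.000136). The YAP targets Amotl2 and Ccn2 did not pass, with differences of 0.34 and 0.27.

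Of 28 genes of elastic fibres, proteoglycans and matrix glycoproteins 8 were called lower, 2 higher and 18 not called, with a median of -0.04, and 2 passed as lower on the code means. Eln, which encodes tropoelastin, read 13.77, 13.94, 14.47 and 14.24 in the first code, against 15.48 to 16.22 (median 15.93) in the later arrays. The gap between the groups was wide, and Eln fell by 1.79 ± 0.13 (limma, adjusted p = 9.35e-06), with -1.90 for first minus second and -1.68 for first minus the third code. Fbln5, which links elastin to cells, read 14.43, 14.40, 14.54 and 14.41 in the first code, against 14.78 to 15.33 (median 14.92) in the later arrays, and fell by 0.54 ± 0.11. The small proteoglycans Aspn and Fmod fell by 0.97 ± 0.15 and 0.65 ± 0.10, and thrombospondin 2 (Thbs2) fell by 0.48 ± 0.10. Tnc, a glycoprotein of developing and wounded tissue, read 13.58, 14.05, 14.22 and 14.24 in the first code, against 12.45 to 13.23 (median 12.68) in the later arrays. It rose by 1.27 ± 0.17 without overlap (adjusted p = 0.000457). Periostin (Postn), another product of activated fibroblasts, had a difference of 0.12 ± 0.13 and did not pass.

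Matrix proteases and their inhibitors gave 7 of 22 called higher and 2 lower, with a median of 0.19. Mmp12, the macrophage elastase, read 14.50, 13.86, 14.09 and 14.18 in the first code, against 12.19 to 13.32 (median 13.03) in the later arrays. It rose by 1.25 ± 0.20 without overlap (limma, adjusted p = 0.00119), whereas most macrophage markers fell. The inhibitor Timp1 rose by 0.73 ± 0.14 and the proteoglycan-cleaving enzyme Adamts9 by 0.87 ± 0.17. Adamts17, a secreted protease of the same family that was among the 15 largest falls, read 7.91, 7.18, 8.30 and 7.12 in the first code, against 8.97 to 9.97 (median 9.68) in the later arrays, and fell by 1.95 ± 0.22 (adjusted p = 0.000181). Its first-code values with sCD74 (7.18) and with both proteins (7.12) lay below the negative control level, so this size is less certain.

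Of 24 cardiomyocyte genes 3 were called higher in the first code against the later codes and 0 lower, with a median of 0.32. First minus second code gave a median of -0.14, with 3 called higher and 4 lower, and first minus the third code gave 0.73, with 15 called higher and 0 lower. The third minus the second code had a median of -0.87, with 13 called lower and 0 higher, against 0.549% of all probe sets. The value against both later codes therefore depends on which later code enters.

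Myh6, the alpha myosin heavy chain of working heart muscle, averaged 9.69 in the first code, 10.86 in the second and 7.90 in the third. Its 4 first-code values of 9.50, 9.50, 10.20 and 9.55 lay between the other codes, above all third-code and below all second-code arrays. Against the later codes together the difference was 0.31 ± 0.72 (limma, adjusted p = 0.832), against the second code -1.17 (adjusted p = 0.000122) and against the third 1.79 (adjusted p = 2.92e-05). Tnnt2, cardiac troponin T, showed the same order, with means of 13.78 in the first, 14.58 in the second and 12.80 in the third code. Phospholamban (Pln), which brakes the calcium pump, averaged 10.10 in the first code, 10.38 in the second and 6.52 in the third, where it lay below the negative control level. The ventricular light chain Myl2 averaged 11.45 in the first code, 11.90 in the second and 8.81 in the third. For Pln and Myl2 the difference between the first and second codes did not pass (adjusted p = 0.2 and 0.0594). The chaperone Hspb7 was highest in the first code, at 14.30, 14.88, 14.80 and 15.28, against 12.94 to 14.12 (median 13.71) in the later arrays, and rose by 1.24 ± 0.23 (adjusted p = 0.00335). Nppa and Myh7, genes of the fetal and stressed heart, were also called higher (adjusted p = 0.00192 and 0.0307), with later-code means below the negative control level.

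Of 17 markers of smooth muscle and pericytes 6 were called higher, 0 lower and 11 not called, with a median of 0.23, and 5 passed on the code means. For 7 of the 17 the mean over 12 arrays lay below the negative control level. Mcam, an adhesion molecule of pericytes and endothelium, read 11.79, 12.02, 12.18 and 11.91 in the first code, against 9.29 to 10.43 (median 9.81) in the later arrays. It rose by 2.13 ± 0.18 (limma, adjusted p = 2.9e-05). Kcnj8, the pore of the pericyte potassium channel, read 9.35, 9.37, 9.63 and 9.20 in the first code, against 8.30 to 8.87 (median 8.57) in the later arrays, and rose by 0.85 ± 0.10. Abcc9, the other channel subunit, and Rgs5, a brake on G protein signalling, were called higher (adjusted p = 0.00198 and 9.77e-05), with later-code means below the negative control level. Ndufa4l2, a mitochondrial protein of pericytes induced by low oxygen, rose by 0.97 ± 0.19. Smooth muscle myosin (Myh11) and Pdgfrb, the receptor that holds pericytes to vessels, did not pass, with differences of 0.05 and 0.11. Endothelial markers moved with these genes, and their part in the result was not tested.

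Epicardial, valve and patterning genes changed for single members. Of 16 epicardial and mesothelial markers 4 were called higher and 0 lower, with a median of 0.21. For 7 of the 16 the mean over 12 arrays lay below the negative control level. Efemp1, a fibulin, read 12.68, 12.69, 12.65 and 12.02 in the first code, against 10.27 to 11.60 (median 10.69) in the later arrays, and rose by 1.72 ± 0.19 without overlap (limma, adjusted p = 0.000161). The guidance molecule Sema3d rose by 0.48 ± 0.09. Wt1, the epicardial transcription factor, was called but had means below the negative control level in both groups. Of 25 cardiac transcription factors 4 were called higher and 0 lower, with a median of 0.20, and 9 had a mean over 12 arrays below that level. Osr1, a factor of lateral mesoderm and connective tissue, read 12.62, 12.69, 12.23 and 12.57 in the first code, against 10.83 to 11.65 (median 11.14) in the later arrays. It rose by 1.36 ± 0.12 without overlap (adjusted p = 3.81e-05), and Meis2 and Hand2, factors of heart development, rose by 0.84 ± 0.09 and 0.47 ± 0.10. Sox9, a factor of valve mesenchyme and cartilage, rose by 0.84 ± 0.13. Gata4, a core factor of heart tissue, had a difference of -0.35 ± 0.14 and did not pass.

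Growth factors and their modulators gave 5 of 27 called higher and 2 lower for IGF, FGF and PDGF signalling, with a median of 0.08. For BMP and Wnt signalling 4 of 33 were called higher and 2 lower, with a median of 0.07. Over all probe sets 5.07% were called higher and 7.53% lower. For 14 of the 33 BMP and Wnt genes the mean over 12 arrays lay below the negative control level. Fgf9, a mesothelial and epicardial growth factor, read 11.04, 11.61, 10.82 and 11.48 in the first code, against 10.07 to 10.52 (median 10.34) in the later arrays. Igfbp3, which binds insulin-like growth factors, read 14.55, 14.71, 14.76 and 14.49 in the first code, against 13.43 to 14.05 (median 13.67) in the later arrays. Both rose without overlap, by 0.92 ± 0.12 and 0.92 ± 0.12 (limma, adjusted p = 0.000476 and 0.000472). Hepatocyte growth factor (Hgf) rose by 0.82 ± 0.18. Secreted Wnt antagonists moved both ways: Frzb rose by 0.73 ± 0.10, while Sfrp2 fell by 0.91 ± 0.12 and Dkk3 fell by 0.74 ± 0.11 (adjusted p = 0.000412, 0.000476 and 0.00113). The BMP targets Id1 and Id4 rose by 0.63 ± 0.15 and 0.63 ± 0.12.

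Of 24 genes of hypoxia and glycolysis 7 were called higher and 0 lower, with a median of 0.24, of which 1 passed on the code means. Examples are the lactate exporter Slc16a3 (0.64 ± 0.13), the collagen prolyl hydroxylase P4ha2 (0.60 ± 0.12) and the mitophagy receptor Bnip3 (0.51 ± 0.11). In carrier the list mean was 12.55 in the first code, 12.55 in the second and 12.45 in the third. With added proteins it was 12.79 to 12.94 in the first code, against 12.49 to 12.68 in the later codes. Of 23 immediate early genes 5 were called higher and 2 lower, with a median of 0.14. Dusp1, a phosphatase of MAP kinases, read 12.61, 13.33, 13.15 and 13.15 in the first code, against 11.68 to 12.18 (median 11.88) in the later arrays, and rose by 1.13 ± 0.14 without overlap (limma, adjusted p = 0.000316). The growth regulator Myc rose by 0.60 ± 0.17 and the orphan receptor Nr4a2 by 0.46 ± 0.08. Cholesterol synthesis genes gave 3 of 18 called higher and 0 lower, with a median of 0.16 and 0 calls on the code means, such as squalene synthase Fdft1 (0.54 ± 0.10) and Cyp51 (0.47 ± 0.14), which removes a methyl group from lanosterol. Their mean in carrier was lowest in the first code, at 11.48, against 11.72 in the second and 11.52 in the third. With added proteins it was 11.69 to 12.18 in the first code, against 11.39 to 11.86 in the later codes.

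Of 18 oxidative and metal stress genes 6 were called lower and 0 higher (1 lower on the code means), with a median of -0.15, among them haem oxygenase Hmox1, which fell by 0.48 ± 0.09, and the glutathione transferase Gstm1, which fell by 0.72 ± 0.10 (limma, adjusted p = 0.00302 and 0.000628). Of 17 mitochondrial and ribosomal protein genes 5 were called lower and 0 higher, with a median of -0.23, and 0 were called on the code means or without the second code. The respiratory subunits Cox5a and Sdhb fell by 0.59 ± 0.14 and 0.44 ± 0.10. Of 30 cell cycle genes 4 were called lower and 0 higher, against 7.53% of all probe sets called lower, with a median of -0.13. Their direction depended on the third code, since first minus second gave a median of 0.018 with 3 called in each direction, and 0 passed on the code means. The replication helicase subunit Mcm5 fell by 0.47 ± 0.11 and the centromere histone Cenpa by 0.37 ± 0.09, while the proliferation marker Mki67 had a difference of 0.12 ± 0.14 and did not pass. Of 16 p53 and senescence genes 3 were called lower and 0 higher (0 on the code means), led by the stress protein Sesn1, which fell by 0.78 ± 0.13. The unfolded protein and amino acid response gave 2 of 21 called in each direction, with a median of 0.03, against 5.07% higher and 7.53% lower over all probe sets.

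Circadian clock genes gave 2 of 17 called in each direction, with a median of 0.03, against 5.07% higher and 7.53% lower over all probe sets. The repressor Nr1d1 rose by 0.52 ± 0.10 and Per1, a core clock gene that serum and hormones induce, by 0.51 ± 0.12. Bhlhe41, a repressor of the clock loop, read 13.08, 12.36, 12.69 and 12.74 in the first code, against 13.41 to 13.84 (median 13.68) in the later arrays, and fell by 0.95 ± 0.11 without overlap (limma, adjusted p = 0.000161).

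**Figure D5:**
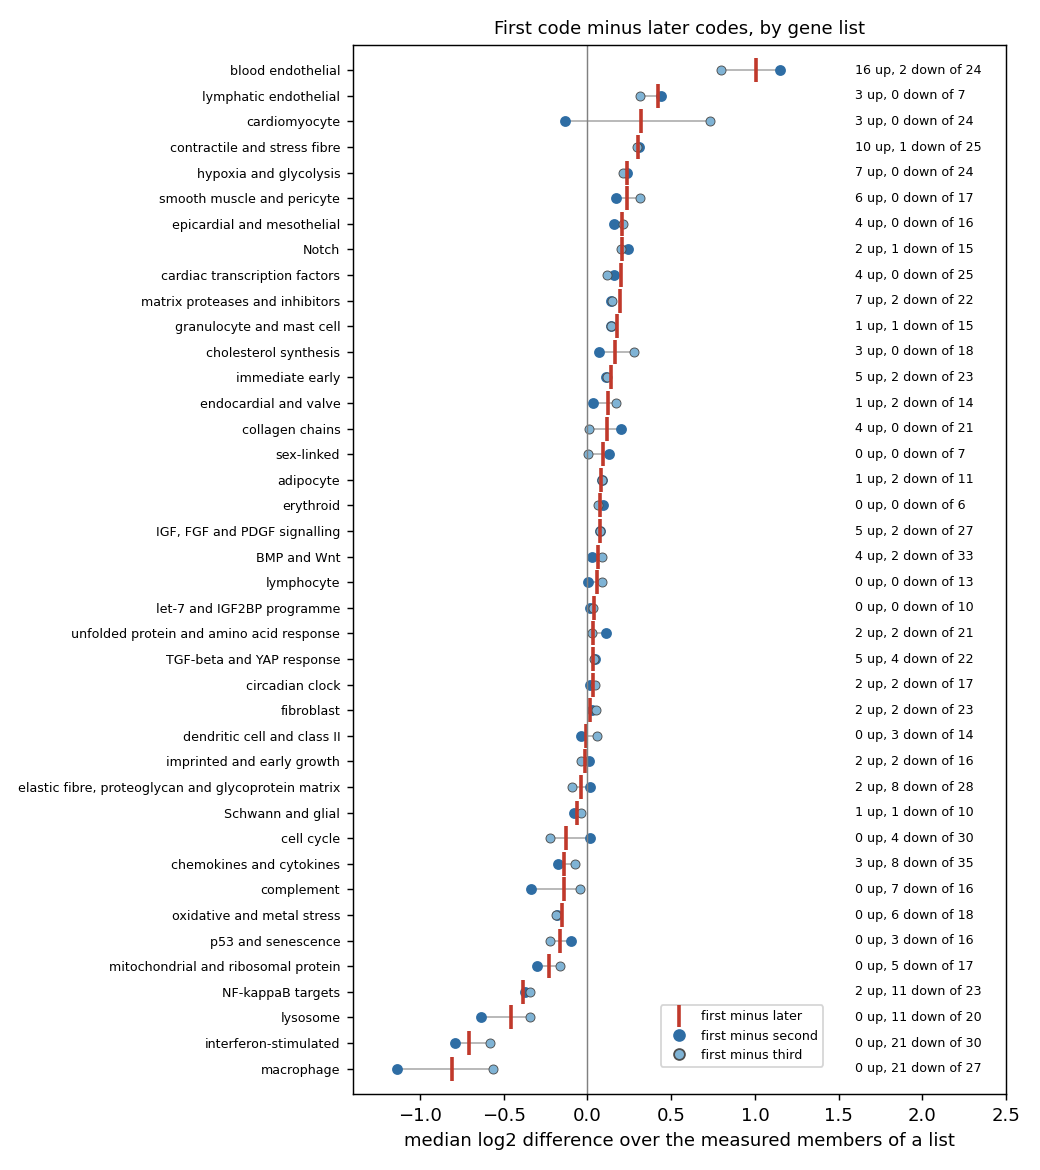
For the 40 gene lists the median log2 difference over measured members is shown for first minus later codes (red tick), first minus second (dark blue) and first minus the third (light blue), with the number of members called higher (up) and lower (down) at the right. Blood endothelial genes have the highest median, at 1.00, and macrophage genes the lowest, at -0.81. The 2 blue points lie on opposite sides of 0 for the cardiomyocyte list.

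Of the other cell types, 0 of 13 lymphocyte and 0 of 6 erythroid markers were called in limma's test, and most lay below the negative control level (10 and 5). Granulocyte and mast cell markers gave 1 of 15 called higher and 1 lower, with 12 below that level. The rise was Kit, the receptor for stem cell factor, which mast cells, progenitors and endothelial cells carry. It read 10.62, 10.63, 10.84 and 10.82 in the first code, against 8.28 to 9.27 (median 8.66) in the later arrays, and rose by 2.04 ± 0.17 (adjusted p = 2.9e-05), while the mast cell protease genes Cma1, Mcpt4 and Tpsb2 stayed below the negative control level in both groups. Dendritic cell and class II genes gave 3 of 14 called lower and 0 higher, and 11 of the 14 lay below that level in every array. Adipocyte genes gave 1 of 11 called higher, which was Fabp4, and 2 lower, and the defining gene Adipoq lay below the negative control level. Schwann and glial markers gave 1 of 10 called in each direction, against 5.07% higher and 7.53% lower over all probe sets. For 7 of the 10, and for Sox10, the mean lay below the negative control level.

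Of 7 sex-linked genes 0 were called between first and later codes in limma's test. Against the second code alone 3 were called higher in the first code: Uty averaged 10.29 in the first code, 9.64 in the second and 10.21 in the third, Kdm5d averaged 8.74, 8.12 and 8.67, and Eif2s3y averaged 9.91, 9.42 and 10.07. All 3 lie on the Y chromosome and were lowest in the second code. First minus second was 0.65 (adjusted p = 0.000517), 0.62 (adjusted p = 0.00955) and 0.49 (adjusted p = 0.0201) for the genes in that order. Of the 7 genes 2 were called higher in the third code than in the second, Uty (adjusted p = 0.0174) and Eif2s3y (adjusted p = 0.0367). The X-linked relatives Kdm6a, Kdm5c and Eif2s3x did not pass, with first minus second differences of 0.04, -0.08 and -0.01. Xist and Ddx3y were not analysed here.

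Whether the difference between codes depended on the treatment was examined with an interaction of code and treatment. Of 22206 probe sets 0 passed limma's F test after adjustment, and 951 had an unadjusted p under 0.05. With MIF present or absent as the only treatment factor, 0 passed and 988 had an unadjusted p under 0.05. The 3 genes with the smallest p were Lrat, Defb40 and Zfp735, and the smallest adjusted p over all probe sets was 0.999911. With 1 first-code and 2 later-code arrays per treatment, a p that misses the threshold does not show that the codes responded alike.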

How the data were processed

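RNA was labelled as biotinylated cDNA with the Affymetrix WT Plus kit from 150 ng of total RNA, per the labels' protocols. The authors deposited 1 log2 signal per probe set and array. Per the submitters' processing notes, RMA, Transcriptome Analysis Console and Affymetrix Expression Console were used, with no version named and no genome build for the probe sets. RMA makes arrays share a distribution, which can hide a global shift. Values ran from 3.08 to 18.39, and in each array 177 to 192 of the non-control probe sets exceeded 16, the log2 limit of a 16-bit scanner, so an unstated step had changed the scale, on which all differences are given.

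Values were used as deposited. Of 28846 probe sets 6640 controls were left out. Of the 22206 tested, 19572 had 1 gene symbol, 0 several and 2634 none (unnamed here). Symbols were matched by Entrez ID to RefSeq GRCm38.p6, and the probe set with the highest mean stood for a gene. Groups came from the sample titles. Models were fitted in limma 3.58.1 (R 4.3.3) with treatment as block, moderated by eBayes without trend, two-sided, and the code was tested on simulated data. Adjusted p-values are Benjamini-Hochberg values over all 22206 probe sets at 0.05. A fit with 3 codes gave the contrasts between single codes. The level of 7.53 is the mean of the negative control medians, and no size is given where a group mean lies below it. The number of arrays limits the precision, with a median SE of 0.11.

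Members, lists and tests were chosen with earlier results of these data known. Named genes are up to 15 in each direction with the largest difference among called genes whose groups do not overlap and whose higher mean exceeds the negative control level (predicted genes, olfactory receptors and small RNAs passed over), up to 6 called members per list with the smallest p, and a fixed set, and others were named after their values were seen. Lists are described by counts, with no test on a list, and 34 genes stand in more than 1 list. Alternatives covered the model, normalization, filters and left-out arrays or codes. Figures were drawn with matplotlib 3.10.9.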

Additional observations from a re-analysis of the deposited data

Results flagged for a closer look

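In 41 of 666 groups of 4 arrays examined (each gene, list mean or array measure within 1 code), 1 array lay far from the other 3 by Dixon's criterion, which chance meets in about 1 group in 20. The 4 arrays of a group had 4 different treatments and are not replicates, so that rate need not apply here. The flagged arrays are given as values with no explanation.

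In the first code, the carrier array stood apart most often. It was low for Amotl2 (11.37, against 12.03 to 12.10 in the others), Id1 (11.61), Sox9 (13.08) and Tpm4 (15.55), and high for Serping1 (15.47). Its list means were low for blood endothelial genes (9.78, against 9.96 to 9.97), TGF-beta and YAP response genes (12.25) and immediate early genes (9.59), and its array median was high (8.14). This array also had the smallest control gap of its code. The first-code sCD74 array was high for Hp (13.45), Postn (16.50) and Sema3d (14.44). The MIF array of that code was high for Myh6 (10.20) and Trp53i11 (15.80), and the array of both proteins was low for Efemp1 (12.02) and for the mean of elastic fibre, proteoglycan and glycoprotein genes (13.89).

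In the second code, the MIF array was low for Apln (8.38), Fabp4 (11.67, against 12.20 to 12.22 in the others), Mest (12.04), C3ar1 (13.74), Ccl3 (13.07), Hmox1 (15.05) and the mean of mitochondrial and ribosomal protein genes (12.29), and high for Vcl (14.03). The sCD74 array was low for Emcn (9.10). The carrier array was low for Col4a2 (14.69) and had a high cardiomyocyte mean (9.15) and a high array median (8.14), and the array of both proteins a high Notch mean (8.84) and was high for Nrp2 (13.02).

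In the third code, the sCD74 array was low for Aif1 (11.77, against 12.53 to 12.59 in the others), Bst2 (13.31), Dusp1 (11.89), Tlr1 (9.48) and the adipocyte mean (7.59), and high for Aspn (14.14), and it had the smallest control gap of all arrays. The MIF array of that code was high for Nr2f2 (12.33). The carrier array was high for Adgre1 (13.64) and had a low interferon-stimulated mean (8.60, against 9.13 to 9.23). The array of both proteins was high for Nr4a2 (9.38) and for the granulocyte and mast cell mean (6.37), which lies below the negative control level.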

How the results depend on the processing

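Over the alternatives run, 0 of the 152 called genes named in the text changed direction (1 was not tested above background), and with the 3 code means as units 96 of them still passed and 56 did not. These genes were chosen as called, many of them with groups that do not overlap, and the alternatives reuse the same arrays. That no direction changed therefore partly follows from the choice. The count of called probe sets was 666 (244 higher, 422 lower) on code means, 1275 (510 and 765) without the second code and 329 (107 and 222) at an absolute log2 difference of at least 1. Leaving out 1 array at a time gave 1528 to 2953 calls (553 to 1167 higher, 975 to 1786 lower), and leaving out the 3 arrays of smallest control gap, a choice made after seeing the data, gave 1904 (775 and 1129). The first against the second code ranged from 2312 to 3514 and against the third from 983 to 1816 when 1 array was left out. The third against the second code, 198 in the fit used, gave 61 to 208 when 1 array was left out, 730 with trend and robust variance, 528 above background and 92 on those 8 arrays alone. The variance shares with 1 array left out were 28.8% to 36.7% for first against later codes, 10.7% to 14.2% for the third against the second, 20.4% to 24.6% for treatment and 30.1% to 33.9% for the residual. Of genes that were not called, signs turned without the second code for Postn (-0.085), Saa3 (-0.071), Col4a2 (-0.088), Mki67 (-0.11) and Eif2s3y (-0.16), and without the third code for Dlk1 (0.053), Myh6 (-1.17, adjusted p = 0.00135), Tnnt2 (-0.80, adjusted p = 0.00289), Myl2 (-0.45, adjusted p = 0.0441) and Pln (-0.28). They turned without the 3 arrays of smallest control gap for Tcf21 (0.045), Myh6 (-0.12) and Tnnt2 (-0.10), for Tcf21 without the first-code carrier array and for Tnnt2 without any 1 array of the third code. With 1 array left out, Tcf21 ranged from -0.066 to 0.029 and Tnnt2 from -0.092 to 0.29. Without the third code the turn of the 4 cardiomyocyte genes follows from their low level in that code, and for the others the cause was not tested. The treatment was the block in the fit. No paired analysis was possible because each code carries a single replicate number in the titles, so the number cannot be a block beside the code.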

Other observations

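A list of 19 genes of arterial and sprouting endothelium, chosen after values were seen, held 13 called higher and 1 lower in the first code, with a median of 0.74. The lists in this section were picked with the values known. Their counts and medians therefore reflect that choice and give no support of their own. Pgf, a placental growth factor of the VEGF family, read 9.01, 9.74, 9.32 and 9.88 in the first code, against 7.49 to 8.39 (median 7.77) in the later arrays, and rose by 1.62 ± 0.18 (limma, adjusted p = 0.000161). Bmx, a tyrosine kinase of arterial and endocardial endothelium, read 10.34, 10.57, 10.17 and 10.44 in the first code, against 8.54 to 9.14 (median 8.89) in the later arrays, and rose by 1.52 ± 0.12 (adjusted p = 1.75e-05). Neither gene overlapped between the groups. The peptide apelin (Apln), made by tip cells, rose by 1.66 ± 0.28 and the chemokine receptor Cxcr4 by 1.12 ± 0.14. Nr2f2, which sets venous identity and is also found in mesenchyme, rose by 0.48 ± 0.13 with overlap, and the semaphorin receptor Nrp2 fell by 0.75 ± 0.13.

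Of 19 Toll-like receptors and their adaptors, also chosen after values were seen, 9 were called lower and 0 higher, with a median of -0.42. Tlr1, the partner of Tlr2, read 8.34, 7.72, 8.79 and 8.64 in the first code, against 9.48 to 10.30 (median 9.88) in the later arrays, and fell by 1.53 ± 0.16 without overlap (limma, adjusted p = 9.08e-05). Tlr7, an endosomal receptor for single-stranded RNA, fell by 0.96 ± 0.19 and Cd180, the receptor bound by the Ly86 product, by 0.92 ± 0.13. Of 14 acute-phase and lubricating secreted proteins chosen in the same way 7 were called higher and 0 lower, with a median of 0.47. Besides Hp, Lcn2 and Prg4, the complement component C7 read 14.26, 13.09, 13.55 and 12.84 in the first code, against 11.18 to 12.03 (median 11.74) in the later arrays, and rose by 1.76 ± 0.19 (adjusted p = 0.000118). Has2, which makes hyaluronan, rose by 1.43 ± 0.16, and both genes had separate groups. Saa3, an acute-phase protein of stromal cells and macrophages, had a difference of 0.42 ± 0.40 and did not pass.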
